A study of Mus musculus with 6 samples.

Results

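Offspring exposed in the womb to the lower of the study's bisphenol-A doses, 10 µg/kg/day, were compared with offspring of vehicle-treated mothers by the RNA of their pancreatic islets. The comparison takes 4 of the 6 arrays, 2 for each group, chosen by their labels. The groups are called BPA10 and vehicle, and the remaining 2 arrays, of a 100 µg/kg/day group called BPA100, entered the estimate of the spread and serve as a reference for dose. All mice were wild-type males of the OF-1 stock, taken at postnatal day 30, and dosing of the mothers ran from gestation day 9 to day 16. An array could hold several animals: vehicle array 1 carried RNA of 5 mice and vehicle array 2 of 1 mouse, BPA10 array 1 of 1 mouse and BPA10 array 2 of 2 mice, and each BPA100 array of 1 mouse. The labels do not give litters, so p-values measure only the spread between these arrays. The study's title names growth of beta cells in early life as its subject.

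Bisphenol-A is a plastics monomer that can bind estrogen receptors. Islets grow after birth mainly because beta cells, which make insulin, divide, and division declines as animals mature. A dividing cell turns on its genes in waves: cyclins D and their kinases act before DNA synthesis, replication factors act during it, and a large set of spindle, kinetochore and cytokinesis genes peaks in mitosis. Islets are picked by hand or by density from a pancreas that consists mostly of enzyme-secreting acinar tissue, so an islet sample also holds RNA of acinar, duct, vessel, nerve and connective tissue cells.

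Each value is the signal of a probe set, a group of short probes for 1 transcript, on a linear scale whose trimmed mean is 150 on every array. Median signals were 33 to 40 and the highest signals 11218 to 15158, and pairs of arrays correlated at 0.945 to 0.975 on the log2 scale across tested probe sets. Differences are BPA10 minus vehicle on the scale of log2(signal + 1), which understates the change of dim probe sets, with the standard error (SE) of a limma fit and 2 arrays per group. The endocrine markers of islets were present on all arrays, among them Ins2, Gcg, Sst and Ppy, and so were acinar markers. In RNA of a mixed tissue, fewer cells of a type and less RNA per cell cannot be told apart.

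No probe set passed an adjusted p of 0.05 between BPA10 and vehicle (0 of 27022, 0%), and the smallest adjusted p was 0.182 (limma, Benjamini-Hochberg). At an unadjusted p under 0.05, 1914 probe sets differed, 844 higher and 1070 lower in BPA10. Counting each gene once by its brightest probe set, 490 of 13193 genes were higher at that level (3.71%) and 303 were lower (2.3%). Both BPA10 arrays lay above both vehicle arrays for 2549 genes (19.3%) and below both for 2137 (16.2%). Without vehicle array 2 the probe set counts were 415 higher and 459 lower, without BPA10 array 1 they were 401 and 1109, and without vehicle array 1 9 probe sets passed adjustment. With only the 2 groups in the fit 1 probe set passed. The shares by gene are the background against which each gene group below is read. The median difference over all genes was 0.02. Permuting 2 arrays against 2 cannot give a 2-sided p below 0.333.

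Genes of mitosis were higher in BPA10 islets as a group. Of 124 tested genes of the spindle, mitotic kinases, kinetochore, cytokinesis and chromosome structure, 101 were higher and 23 lower, with a median difference of 0.39, a 1.31-fold higher signal. At unadjusted p under 0.05, 46 were higher and 0 lower, beside 3.71% and 2.3% of all genes. Both BPA10 arrays lay above both vehicle arrays for 74 of the 124, beside 19.3% of all genes. The mean level of the group, counted from the mean of vehicle, was 0.07 and -0.07 in vehicle and 0.48 and 0.50 in BPA10, so the BPA10 arrays lay together and clear of vehicle. None of the 124 passed after adjustment over all probe sets. The list holds genes already seen to differ in these arrays and is no independent evidence.

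**Figure D1:**
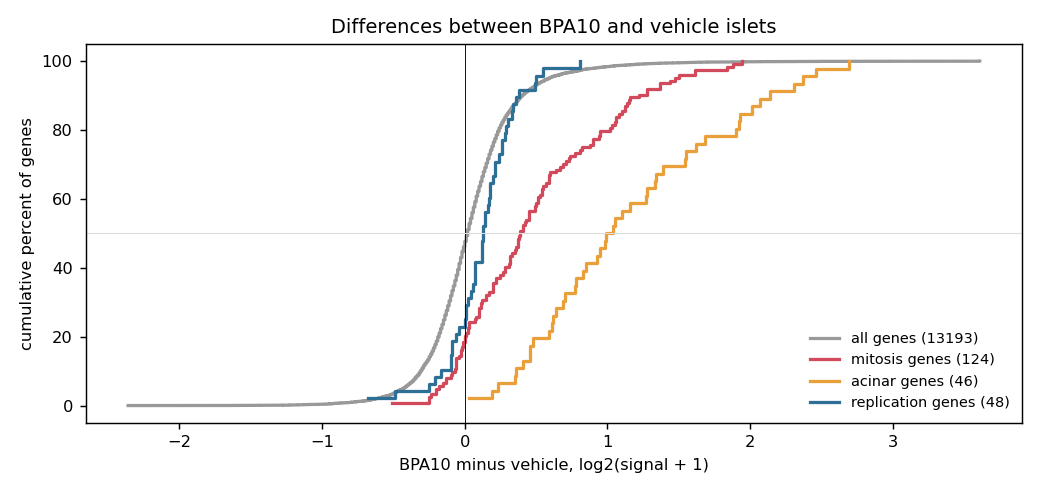
Cumulative percent of genes against their difference between BPA10 and vehicle on the scale of log2(signal + 1), with a line each for all 13193 genes, 124 mitotic, 46 acinar and 48 replication genes. The lines cross 50% at the medians, 0.02 for all genes, 0.39 for mitotic, 1.01 for acinar and 0.13 for replication genes.

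**Figure D2:**
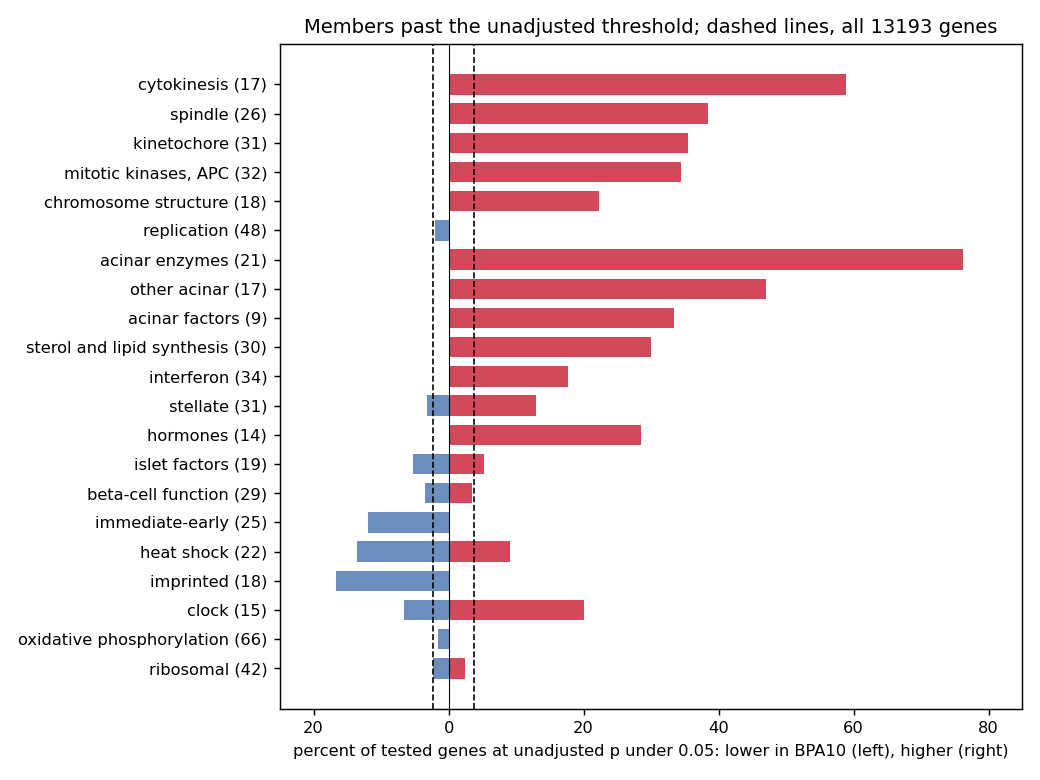
Share of each gene list's tested members, in percent, that were higher or lower in BPA10 than in vehicle at unadjusted p under 0.05 (limma), with lines at the shares of all 13193 genes, 3.71% higher and 2.3% lower. Of the lists plotted, the acinar enzyme, cytokinesis and other acinar lists reach farthest to the side of higher signal, and the replication list has no member there.

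The spindle genes had a median difference of 0.44 over 26 tested members, with 10 higher and 0 lower at unadjusted p under 0.05. Hmmr, a hyaluronan-binding protein that also sits on spindle microtubules and focuses spindle poles, had signals of 49 and 45 in vehicle and 171 and 181 in BPA10. The 2 groups did not overlap, as the rule for naming the largest differences requires, and each differed within itself by far less than from the other. The difference was 1.88 ± 0.19 (adjusted p = 0.182, limma). Its 4 tested probe sets were all higher, by 0.96 to 1.88. Aspm, a spindle pole protein, read 44 and 36 in vehicle and 121 and 100 in BPA10, a difference of 1.44 ± 0.26 (adjusted p = 0.315). Its other 2 probe sets differed by 0.18 and 0.82. Ckap2 differed by 1.06 ± 0.22 and Tpx2, an activator of Aurora kinase A, by 1.10 ± 0.26, with 0.28 and 1.09 in the other probe sets of Tpx2. In BPA100 Hmmr read 121 and 118 and Aspm 59 and 77, between vehicle and BPA10 in each case. Both genes were named for their difference between BPA10 and vehicle, a choice that by itself favours BPA100 values below BPA10.

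Among the mitotic kinases and the anaphase-promoting complex with its partners, 11 of 32 tested genes were higher at unadjusted p under 0.05 and 0 lower, and the median difference was 0.30. Cdc20, which activates the complex at anaphase, had signals of 136 and 97 in vehicle and 332 and 377 in BPA10, a difference of 1.61 ± 0.20 (adjusted p = 0.194, limma). Ube2c, the ubiquitin-conjugating enzyme of the same complex, had 76 and 59 in vehicle and 200 and 213 in BPA10, a difference of 1.61 ± 0.20 (adjusted p = 0.194). In both genes the lowest BPA10 array lay above the highest vehicle array, which the rule for naming the largest differences requires. Nek2, a centrosome kinase, read 42 and 27 against 120 and 126, a difference of 1.84 ± 0.27 (adjusted p = 0.315), while its other 2 probe sets differed by -0.4 and 0.87. Cdk1, the kinase that drives entry into mitosis, read 120 and 102 against 191 and 219, a difference of 0.88 ± 0.18 (adjusted p = 0.389). Cks2, a small Cdk-binding subunit, differed by 1.22 ± 0.20 with 2 probe sets at 1.16 and 1.22.

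**Figure D3:**
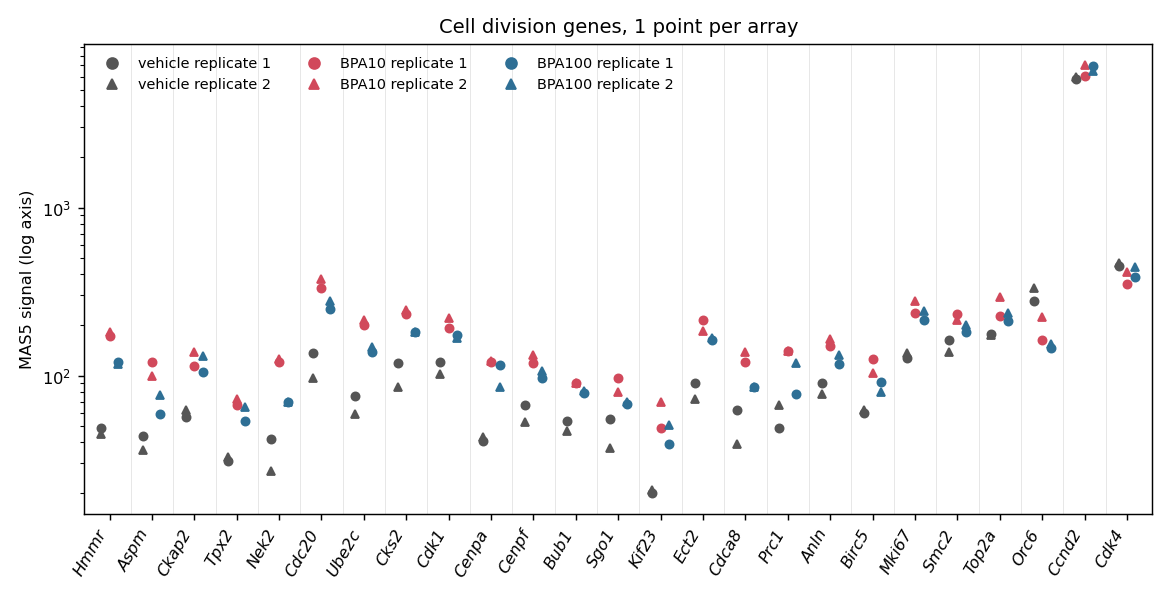
Signal of division genes on each of the 6 arrays, on a log axis, with a colour per group and a circle for replicate 1 and a triangle for replicate 2. For Hmmr the vehicle arrays read 49 and 45, the BPA10 arrays 171 and 181 and the BPA100 arrays 121 and 118.

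Kinetochore and checkpoint genes, which attach chromosomes to the spindle and delay anaphase until all are attached, numbered 31, of which 11 were higher and 0 lower at unadjusted p under 0.05 (median difference 0.42). Cenpa, the histone variant that marks centromeres, read 41 and 43 in vehicle and 120 and 122 in BPA10, a difference of 1.5 ± 0.23 (adjusted p = 0.315, limma). Its BPA100 arrays read 115 and 85. Cenpf, a large kinetochore protein, read 67 and 53 against 119 and 132, a difference of 1.06 ± 0.22, but its other probe set differed by only 0.06. Bub1, a checkpoint kinase, differed by 0.82 ± 0.22, and Sgo1, which protects cohesin at centromeres, by 0.95 ± 0.27. For each of the 4 genes both BPA10 arrays exceeded both vehicle arrays. For Cenpa the rule for naming the largest differences requires this. All 4 were also named for the smallest p in the list, a choice that favours it. Of the 31 genes 20 had both BPA10 arrays above both vehicle arrays, beside 19.3% of all genes, and 1 had both below.

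Cytokinesis genes, which divide the cell body after the chromosomes have parted, had the highest median difference of the 5 mitotic groups, 0.77, a 1.70-fold higher signal. Of 17 tested members 10 were higher and 0 lower at unadjusted p under 0.05. In 12 both BPA10 arrays lay above both vehicle arrays, beside 19.3% of all genes. Ect2, the exchange factor that activates RhoA at the cleavage furrow, read 90 and 73 in vehicle and 214 and 184 in BPA10, a difference of 1.28 ± 0.19 (adjusted p = 0.315, limma). Kif23, a motor of the central spindle, read 20 and 21 against 49 and 70, a dim probe set with a difference of 1.47 ± 0.32. Prc1, which bundles central spindle microtubules, read 49 and 67 against 141 and 140. Cdca8, a subunit of the chromosomal passenger complex, differed by 1.37 ± 0.26, its partner Birc5 by 0.90 ± 0.22, and the scaffold protein Anln by 0.90 ± 0.19. When each gene was taken as the mean of its probe sets, the cytokinesis median was 0.53.

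Genes of chromosome structure were less far apart, with 4 of 18 higher and 0 lower at unadjusted p under 0.05 and a median difference of 0.31. Mki67, a protein coating mitotic chromosomes that is a general marker of cycling cells, read 128 and 136 in vehicle, 235 and 279 in BPA10 and 213 and 241 in BPA100. Its BPA10 arrays lay above both vehicle arrays, a difference of 0.95 ± 0.17 (adjusted p = 0.315, limma). Smc2, a condensin subunit, differed by 0.57 ± 0.17, Ncapg, another condensin subunit, by 1.03 ± 0.34, and Top2a, which untangles DNA, by 0.55 ± 0.18. The other probe sets of Smc2 and Top2a differed by 0.32 and 0.3. Pttg1 (securin), chosen after its values were seen, differed by 1.12 ± 0.30, and Stmn1, a microtubule-destabilising protein chosen in the same way, by 0.81 ± 0.17.

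Promoters of mitotic genes often hold CHR elements, bound by the complex that switches these genes on late in the cycle, and CCAAT boxes, bound by NF-Y. The letters TTTGAA for the CHR and CCAAT for the box were searched on both strands in RefSeq promoters of build GRCm38.p6, each 250 bases before to 50 after a start. TTTGAA occurred in 17.9% of all 32851 promoters and in 48.2% of the 114 promoters of mitotic genes. The share was 65.1% of 43 promoters for the members higher at unadjusted p under 0.05, 38% of 71 for the other members, and 17% of 47 promoters of replication genes. The promoters belong to 103 of the 124 mitotic genes, 39 of the 46 higher ones and 39 of the 48 replication genes. Genes without a listed promoter are left out, and a gene with several starts counts more than once. CCAAT occurred in 37.4% of all promoters, in 79.1% of the promoters of the higher members and in 62% of those of the other members. A match describes the letters and is no evidence of binding. The promoters of 4 mitotic genes described above are printed to show these letters, as the 150 bases before the start, 5′ to 3′ on the gene's strand, with capitals marking both motifs on either strand. The Hmmr stretch holds only CCAAT boxes, since its TTTGAA begins 8 bases after the start. They lie at chr11:40733438-40733587 (minus strand, Hmmr), chr4:118437344-118437493 (minus strand, Cdc20), chr2:164769779-164769928 (plus strand, Ube2c) and chr10:69352913-69353062 (minus strand, Cdk1).
Hmmr: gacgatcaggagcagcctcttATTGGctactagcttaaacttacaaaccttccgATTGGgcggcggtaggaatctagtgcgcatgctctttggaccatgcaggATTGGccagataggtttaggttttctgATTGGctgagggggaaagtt
Cdc20: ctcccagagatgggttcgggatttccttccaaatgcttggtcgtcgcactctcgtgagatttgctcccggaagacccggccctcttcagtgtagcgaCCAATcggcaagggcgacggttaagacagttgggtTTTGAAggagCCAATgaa
Ube2c: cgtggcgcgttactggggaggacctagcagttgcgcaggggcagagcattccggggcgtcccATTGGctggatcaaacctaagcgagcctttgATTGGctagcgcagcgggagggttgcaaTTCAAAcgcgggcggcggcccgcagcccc
Cdk1: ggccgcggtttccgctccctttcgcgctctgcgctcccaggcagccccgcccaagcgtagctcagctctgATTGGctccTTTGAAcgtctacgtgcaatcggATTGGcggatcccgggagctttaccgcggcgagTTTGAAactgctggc

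The earlier steps of the cycle gave other values. Of 48 DNA replication genes 36 were higher and 12 lower, beside 7000 higher and 6190 lower of all 13193 genes. Their median difference was 0.13, and -0.03 over the arrays of 1 mouse. Their mean level was -0.02 and 0.02 in vehicle and 0.06 and 0.18 in BPA10. At unadjusted p under 0.05, 0 were higher and 1 was lower. Of 9 genes of the passage from G1 to S phase none passed in either direction. Ccnd2, a cyclin D that beta-cell growth depends on, read 5816 and 5959 in vehicle and 6055 and 7010 in BPA10 (0.15 ± 0.12), and Ccnd1 differed by 0.07 ± 0.12, with -0.42 and -0.1 in its other probe sets. Cdk4, their kinase partner, read 448 and 467 in vehicle and 353 and 412 in BPA10 (-0.26 ± 0.15), and E2f1, a driver of S phase genes, differed by -0.35 ± 0.21. The replication gene that was lower was Orc6, of the origin recognition complex, at 279 and 332 in vehicle and 163 and 222 in BPA10, a difference of -0.68 ± 0.20 (adjusted p = 0.592, limma). Mcm10, Pole and Cdt1, which act in loading or firing origins or in synthesis, differed by 0.55 ± 0.26, 0.81 ± 0.37 and 0.34 ± 0.16. Foxm1, the transcription factor of late-cycle genes, read 184 and 47 in vehicle and 327 and 230 in BPA10, a wide vehicle spread that gives 1.55 ± 0.67. Its other probe set differed by 0.46.

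Among 7 tested genes in the list of cyclin-dependent kinase inhibitors, 2 were higher at unadjusted p under 0.05. Cdkn2c, which binds Cdk4 and Cdk6, read 201 and 241 in vehicle and 357 and 383 in BPA10, a difference of 0.75 ± 0.16 (adjusted p = 0.419, limma), so an inhibitor of the G1 kinases was also above vehicle on both arrays. Cdkn3, a phosphatase acting on Cdk proteins in mitosis, differed by 1.15 ± 0.34. Cdkn1a (p21) and Cdkn1b (p27), the inhibitors of Cdk2, differed by 0.09 ± 0.28 and 0.18 ± 0.14, and the other probe set of each by -1.04 and -0.11.

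Acinar genes were higher in BPA10 than in vehicle, and the vehicle arrays differed widely among themselves. All 46 tested acinar genes were higher, with a median difference of 1.01. At unadjusted p under 0.05, 26 were higher, and 37 had no overlap, beside 3.71% and 19.3% of all genes. The mean acinar level, counted as above, was 0.67 and -0.67 in vehicle, 1.34 and 0.97 in BPA10, and 0.99 and -0.13 in BPA100. Summed over the 46 genes, the signal was 181927 and 94772 in vehicle and 259413 and 227793 in BPA10. Vehicle array 2, of 1 mouse, was thus low in every one of these sums. Without it the median was 0.37, and 3 acinar genes were higher at unadjusted p under 0.05 in place of 26. Without BPA10 array 1 or 2 they were 3 and 10, and without vehicle array 1 they were 40. Without vehicle array 2 the mitotic group had 32 in place of 46. With the acinar level of each array as a covariate in the fit, 29 mitotic and 2 acinar genes were higher at that level.

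**Figure D4:**
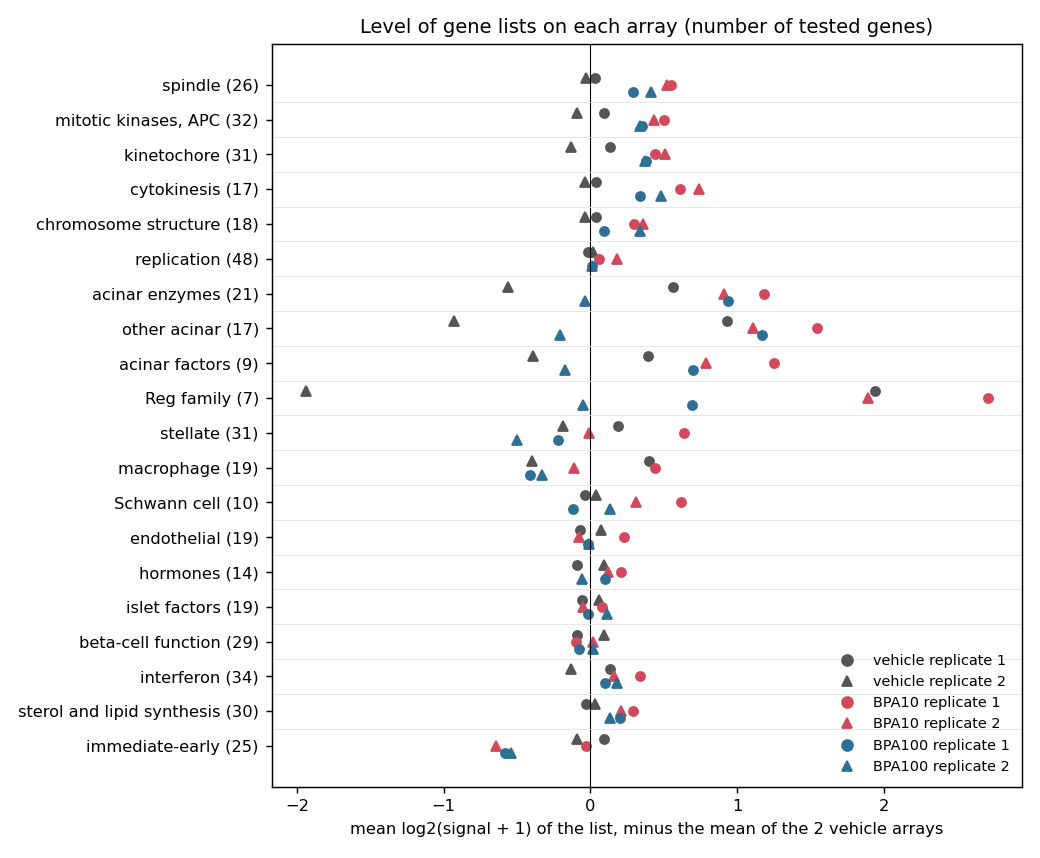
Mean log2(signal + 1) of gene lists on each of the 6 arrays, minus the mean of vehicle, with a colour per group and a symbol per replicate. The mitotic lists read close to 0 on both vehicle arrays, and the acinar lists and the Reg genes spread widely between the vehicle arrays, from 0.67 to -0.67 for all acinar genes.

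Of the digestive enzymes 21 were tested and 16 were higher at unadjusted p under 0.05. Prss3, a trypsinogen, read 635 and 1106 in vehicle and 3780 and 4599 in BPA10, a difference of 2.31 ± 0.36 (adjusted p = 0.315, limma). Here vehicle array 1, not array 2, was the lower. Trypsinogen genes are near-identical copies, so a probe set may read more than 1 of them. The carboxypeptidase Cpa1 read 6983 and 4335 against 10307 and 9283 (0.83 ± 0.27), and the chymotrypsinogen Ctrb1 7467 and 5536 against 10080 and 9331 (0.59 ± 0.20). Signals of this size lie near the highest on the arrays.

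Among other acinar genes, Cckar, the cholecystokinin receptor, read 440 and 43 in vehicle and 1119 and 721 in BPA10 (2.69 ± 0.96), and Zg16, a granule lectin, 7978 and 3494 against 10907 and 10091 (0.99 ± 0.37). In both genes vehicle array 2 was the lowest of the 4 arrays. Rbpjl, a subunit of the transcription factor complex that maintains acinar identity, read 19 and 12 in vehicle and 95 and 81 in BPA10, a difference of 2.46 ± 0.44 (adjusted p = 0.315, limma), and 38 and 17 in BPA100. Its vehicle arrays were both low. Nr5a2, a nuclear receptor of acinar genes, differed by 1.10 ± 0.38 with -0.04 and 0.79 in its other probe sets, and Xbp1, the secretory-cell factor, by 0.46 ± 0.13.

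The Reg genes encode small secreted lectins that acinar cells release in inflammation and injury. All 7 tested were higher, 4 at unadjusted p under 0.05, and the median difference was 2.50. Reg3b read 4790 and 326 in vehicle and 10721 and 5763 in BPA10 (2.65 ± 0.99; adjusted p = 0.68, limma), and Reg2 read 7547 and 390 against 10570 and 8025 (2.42 ± 1.06). Reg3a read 1869 and 24 against 3674 and 1902 and was 222 and 95 in BPA100. In all 3 genes vehicle array 2 was far below the other 3 arrays, and without it the median of the Reg genes was 0.32. Without vehicle array 1 it was 4.59, and Reg2, Reg3a and Reg3b then passed adjustment. The Reg3 genes are close copies of each other, so their probe sets may share signal.

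The markers of other cell types gave unlike values. Schwann cell markers of nerve were higher in 10 of 10 tested genes, with a median of 0.47 and 2 at unadjusted p under 0.05. Fabp7, a fatty acid-binding protein of glia, read 98 and 160 in vehicle and 292 and 258 in BPA10 (1.13 ± 0.31), and Sox10, a glial lineage factor, 45 and 47 against 60 and 78 (0.56 ± 0.25). The summed signal of the Schwann genes was 1478 and 1439 in vehicle and 2177 and 1864 in BPA10.

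Stellate and smooth muscle markers were higher in 26 of 31 tested genes (median 0.37), and lower in 5. Only 4 were higher and 1 lower at unadjusted p under 0.05. The group level was 0.19 and -0.19 in vehicle and 0.64 and -0.01 in BPA10, so only BPA10 array 1 lay above both vehicle arrays, and without it the median was -0.05. Thy1, a fibroblast surface protein, read 75 and 48 against 155 and 134 (1.25 ± 0.28), and Postn, a matrix protein of activated fibroblasts, 252 and 240 against 503 and 362 (0.79 ± 0.19). Des, the muscle filament desmin, was lower in BPA10, at 24 and 35 against 75 and 59 (-1.17 ± 0.34). Duct, endothelial and macrophage lists had medians of -0.00, 0.04 and 0.19, and the share of the 3 lists called at unadjusted p under 0.05 was 1 of 12, 0 of 19 and 1 of 19. In BPA10 array 1 alone, Slc4a1 of red cells read 166 and Ms4a1 of B cells 110, against 14 to 27 for these genes on the other arrays. The part of nerve or fibroblast RNA in the difference of the mitotic genes was not tested.

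Islet hormone and granule genes were slightly higher in BPA10. Of 14 tested, 12 were higher and 4 passed at unadjusted p under 0.05, with a median of 0.24, but after quantile normalization that median was -0.11, so the direction depends on the scaling. Ins2 read 3546 and 3552 in vehicle and 4873 and 4797 in BPA10 (0.45 ± 0.19; adjusted p = 0.688, limma). Gcg, encoding glucagon, read 8754 and 9465 against 12171 and 11487 (0.38 ± 0.13), and Ppy, encoding pancreatic polypeptide, 9321 and 9441 against 13666 and 11318 (0.41 ± 0.15). Both BPA10 arrays were above both vehicle arrays in all 3, which are among the members of smallest p, a choice that favours it. The same held for 9 of the 14 tested, beside 19.3% of all genes. Under quantile normalization Gcg, Ppy, Iapp, Sst and Chga had differences below 0, from -0.01 to -0.13.

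The factors that keep beta-cell identity differed little as a group, with a median of 0.08 over 19 genes and 1 passing in each direction. Pdx1, the central beta-cell and pancreas factor, read 1006 and 1121 in vehicle and 1346 and 1401 in BPA10, and 1077 and 956 in BPA100 (0.37 ± 0.13; adjusted p = 0.663, limma). Nkx6-1, another beta-cell factor, differed by 0.01 ± 0.19. Pou3f4, a factor of early alpha cells, was lower, at 22 and 18 against 62 and 32 (-1.13 ± 0.40). Of 29 genes of glucose sensing and secretion, 13 were higher and 16 lower. Cacna1d, a calcium channel subunit, was lower in BPA10, at 299 and 339 against 495 and 487 (-0.62 ± 0.19), but its other probe set was higher, by 0.31. Slc2a2, the glucose transporter, differed by 0.17 ± 0.12. The disallowed genes, silenced in mature beta cells but widely active elsewhere, were higher in 27 of 29 (median 0.40), with 3 passing. Ldha, of lactate production, read 230 and 148 in vehicle, 359 and 246 in BPA10 and 209 and 160 in BPA100 (0.68 ± 0.27). Without BPA10 array 1 their median was 0.03.

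Prolactin and growth hormone act on islets through Stat5, whose targets include the feedback inhibitors Cish and Socs2. Both were lower in BPA10. Cish read 321 and 407 in vehicle, 178 and 206 in BPA10 and 141 and 252 in BPA100, a difference of -0.91 ± 0.27 (adjusted p = 0.593, limma). Socs2 read 563 and 816 in vehicle and 369 and 520 in BPA10, a difference of -0.63 ± 0.24 (adjusted p = 0.68). The groups did not overlap in either gene, but both were named for a small p, a choice that favours it. In their list, pregnancy growth, both BPA10 arrays lay below both vehicle arrays for 2 of 17 tested genes, beside 16.2% of all genes. Of survival genes none passed in either direction, and Bcl2, which blocks cell death, differed by 0.09 ± 0.26. The list of pregnancy growth genes as a whole had 9 of 17 higher and 8 lower, 2 passing in each direction: Cish and Socs2 lower, and the cycle genes Foxm1 and Birc5, which other lists here also hold, higher.

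Of 29 insulin and IGF signalling genes 2 were higher and 1 lower at unadjusted p under 0.05, beside 3.71% and 2.3% of all genes. Of 17 genes of estrogen receptors and response 1 was higher and 0 lower at that level. That 1 gene was Xbp1, described above among the acinar genes. Esr1 and Esr2, the nuclear estrogen receptors, lay below the brightness filter, and Gper1, the membrane receptor, read 36 and 41 in vehicle and 62 and 47 in BPA10 (0.48 ± 0.28). Greb1, an estrogen-induced gene elsewhere, was dim at 22 and 8 against 34 and 24 (1.04 ± 0.50). Eif4ebp1, a repressor of translation that mTOR inactivates, read 288 and 192 against 386 and 378, and 213 and 151 in BPA100 (0.70 ± 0.24). Ddit4l, an mTOR inhibitor, read 81 and 70 in vehicle, 146 and 100 in BPA10 and 454 and 296 in BPA100.

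Interferon response genes were above the background share, with 6 of 34 higher and 0 lower at unadjusted p under 0.05 and a median of 0.22. Rsad2 (viperin), an antiviral enzyme, read 93 and 111 in vehicle and 411 and 221 in BPA10, a difference of 1.56 ± 0.27 (adjusted p = 0.315, limma), and its 3 probe sets were all higher, by 0.95 to 1.56. Gbp2, an interferon-induced GTPase, read 77 and 94 against 147 and 138 (0.74 ± 0.22), and Mx1 was dim, at 20 and 7 against 29 and 43. Without vehicle array 2 the median of the list was 0.06. The interferon response element, searched on both strands, occurred in 47.1% of the 34 promoters of 27 interferon genes and 3.44% of all promoters. Rsad2 is printed as an example, at chr12:26456453-26456602 (minus strand), the 150 bases before its start, with capitals marking a match to the element on the other strand.
Rsad2: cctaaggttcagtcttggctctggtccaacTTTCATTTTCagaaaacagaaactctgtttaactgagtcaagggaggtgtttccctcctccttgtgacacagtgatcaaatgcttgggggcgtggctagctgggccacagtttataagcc

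Genes of cholesterol and fatty acid synthesis were higher in 23 of 30, and 9 were higher and 0 lower at unadjusted p under 0.05, with a median of 0.30. Nsdhl, a late enzyme of cholesterol synthesis, read 318 and 322 in vehicle and 528 and 469 in BPA10 (0.64 ± 0.14; adjusted p = 0.445, limma), and Idi1, an early isoprenoid enzyme, read 413 and 447 against 708 and 595 (0.59 ± 0.14). Scd1, a fatty acid desaturase, read 137 and 195 against 326 and 256. In each of these the groups did not overlap, but they were named for a small p, a choice that favours it. Both BPA10 arrays lay above both vehicle arrays for 15 of the 30, beside 19.3% of all genes. They lay below both for 3, beside 16.2%. No array left out brought the median of the list under 0.22. Endoplasmic reticulum folding genes were higher in 32 of 41, with 3 passing, and Derl3, a degradation factor also abundant in acinar cells, differed by 0.66 ± 0.20.

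Immediate-early genes, which cells switch on within minutes of stress or stimulation, were lower in 20 of 25 tested, with a median of -0.27 and 3 at unadjusted p under 0.05. Nr4a1, a nuclear receptor of this class, read 192 and 334 in vehicle and 125 and 64 in BPA10, a difference of -1.49 ± 0.35 (adjusted p = 0.471, limma), and Junb read 77 and 60 against 47 and 27. The level of the list was 0.09 and -0.09 in vehicle, -0.03 and -0.64 in BPA10 and -0.58 and -0.54 in BPA100. Both BPA100 arrays were thus low, and of the BPA10 arrays only array 2. Without BPA10 array 2 the median difference from vehicle was -0.03, without BPA10 array 1 it was -0.46, and over the arrays of 1 mouse it was 0.02. Both BPA10 arrays lay below both vehicle arrays for 5 of the 25 genes, beside 16.2% of all genes. Dnajb1, a co-chaperone of Hsp70, read 514 and 493 in vehicle and 261 and 290 in BPA10, a difference of -0.87 ± 0.15 (adjusted p = 0.315), and its 2 probe sets were both lower. Hspa1b, an inducible Hsp70, read 535 and 595 against 368 and 233 and was lower still in BPA100, at 157 and 155. Hspa1b shares nearly all its sequence with Hspa1a. Other chaperones went the other way: Cryab, a small heat shock protein, read 151 and 156 against 269 and 209 (0.62 ± 0.18). Of 22 heat shock genes tested 14 were higher and 8 lower, 2 and 3 of them at unadjusted p under 0.05, with a median of 0.09.

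**Figure D5:**
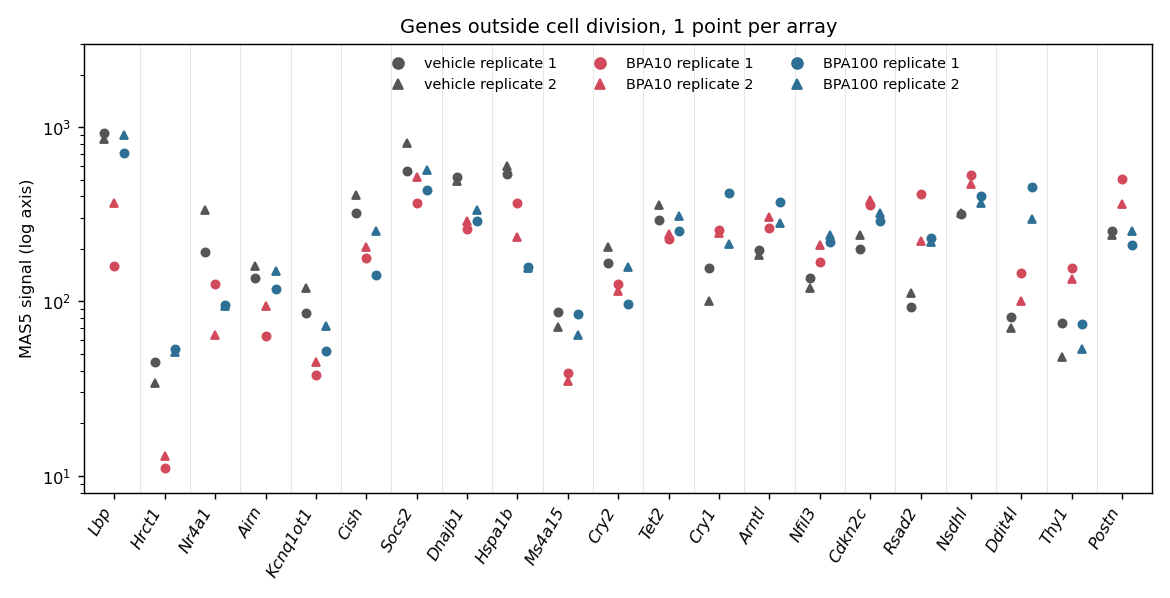
Signal on each of the 6 arrays, on a log axis, of genes outside cell division, with a colour per group and a symbol per replicate. Dnajb1 reads 514 and 493 in vehicle and 261 and 290 in BPA10, and Rsad2 reads 93 and 111 against 411 and 221.

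Clock genes differed in both directions, 3 of 15 higher and 1 lower at unadjusted p under 0.05. Cry1, a repressor of the clock, read 155 and 101 in vehicle and 257 and 248 in BPA10 (1.01 ± 0.32; adjusted p = 0.621, limma), Arntl, an activator, 198 and 185 against 262 and 306 (0.56 ± 0.18, with -0.11 in its other probe set), and Nfil3 differed by 0.56 ± 0.18. Cry2, another repressor, was lower, at 125 and 115 against 167 and 206 (-0.63 ± 0.25). The hour at which islets were taken is not given in the labels, and its part in these values was not tested.

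Of 18 imprinted genes, 0 were higher and 3 were lower at unadjusted p under 0.05. Airn, the noncoding RNA that silences Igf2r in cis on the paternal chromosome, read 136 and 160 in vehicle and 63 and 94 in BPA10, a difference of -0.93 ± 0.25 with -0.86 in its other probe set (adjusted p = 0.579, limma). Igf2r, its target, was also lower, by -0.37 ± 0.16. Kcnq1ot1, another silencing noncoding RNA, read 86 and 120 against 38 and 45 (-1.28 ± 0.28; adjusted p = 0.445). Its other 3 probe sets differed by -1.6 to -0.13. In BPA100 Kcnq1ot1 read 52 and 72, and Airn 117 and 149. Tet2, an enzyme that oxidises methylated cytosine, read 295 and 355 against 227 and 245 (-0.45 ± 0.17), the 1 gene of 18 in the chromatin list that was lower at unadjusted p under 0.05.

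Of 10 tested acute phase genes 0 were higher and 1 was lower at unadjusted p under 0.05, with a median of -0.16. That gene was Lbp, the lipopolysaccharide-binding protein, at 923 and 853 in vehicle and 159 and 367 in BPA10, a difference of -1.87 ± 0.33 (adjusted p = 0.315, limma) with -1.82 in its other probe set. In BPA100 it read 710 and 900, close to vehicle. Outside the lists, Hrct1 was dim and read 45 and 34 against 11 and 13 (-1.63 ± 0.34), and 53 and 51 in BPA100. Kl (klotho), a co-receptor of fibroblast growth factors, read 121 and 153 against 81 and 60 (-0.95 ± 0.27). Among genes that were higher, the potassium channel Kcnk13 read 23 and 9 against 59 and 60, and the cation transporter Slc12a8 60 and 26 against 186 and 100. Lrr1 read 31 and 14 against 63 and 56. Among genes that were lower, the brightest probe sets of Trim62, Wfdc1, Trpc7, Prkrip1, Mycbpap and Ms4a15 differed by -1.41 to -1.07. In each the BPA100 mean was nearer to vehicle, as for Ms4a15 at 87 and 71 in vehicle, 39 and 35 in BPA10 and 85 and 64 in BPA100. These genes were named for their low BPA10 signals, a choice that by itself favours a BPA100 mean above BPA10. The other 2 probe sets of Trim62 were higher in BPA10, by 0.2 and 2.13. Clu (clusterin), an extracellular chaperone, and Agr2, a secretory-cell disulphide isomerase, were chosen after their values were seen. Clu was higher with 4 of 4 probe sets at 0.45 to 0.78, and Agr2 with 2 of 2 at 1.18 to 3.73.

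In genes with several probe sets, agreement among them can be counted. Of 5960 genes with at least 2 tested probe sets, 37 had every probe set past unadjusted p 0.05 in 1 direction, 26 higher and 11 lower. The 26 include Hmmr, Cdc20, Cdca8, Cks2 and Prc1 of the division genes, Cela3b, Clps, Prss2 and Sycn of the acinar genes, and Rsad2. The 11 include Airn, Dnajb1, Hspa1b and Lbp. Another 19 genes had passing probe sets of opposite sign.

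The higher dose was set against the lower one, in a comparison whose means leave out vehicle, whose spread is estimated over all 6 arrays, and which shares the BPA10 arrays with the results above. No probe set passed adjustment, the smallest adjusted p being 0.897 (limma), with 1283 at unadjusted p under 0.05. By gene, 349 were lower in BPA100 than in BPA10 (2.65%) and 219 higher (1.66%). Of the 124 mitotic genes 82 read lower in BPA100, 8 of them at unadjusted p under 0.05, with a median difference of -0.14. The mitotic level was 0.31 and 0.38 in BPA100, between vehicle and BPA10. All 46 acinar genes read lower in BPA100, 3 at unadjusted p under 0.05 (median -0.58). All 7 Reg genes did so, 2 at unadjusted p under 0.05 (median -1.77). The acinar level was 1.34 and 0.97 in BPA10 and 0.99 and -0.13 in BPA100. Of the 31 stellate genes 30 read lower in BPA100, 13 at unadjusted p under 0.05 (median -0.72). All 29 disallowed genes read lower, 9 at that level, and of all 13193 genes 6986 read lower. The stellate level was 0.64 and -0.01 in BPA10 and -0.22 and -0.5 in BPA100. That of the disallowed genes was 0.63 and 0.07 against -0.02 and -0.29. In both lists BPA10 array 1 was far above BPA10 array 2. Lbp and Hrct1 were higher in BPA100 than in BPA10, by 1.72 ± 0.33 and 2.03 ± 0.34, and Ddit4l by 1.59 ± 0.26. Lbp and Hrct1 were named for their low BPA10 signals, a choice that by itself favours this.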

How the data were processed

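RNA of islets from 6 samples was hybridised to Affymetrix arrays after amplification, per the labels' protocols. Intensity values, 1 per probe set, are as deposited; they were made by the authors with MAS5, per the submitters' processing notes. Its version is not given in the sources used here, and detection calls were left aside. Read from the values, each array was scaled to a mean of 150 with 2% trimmed at each end. Of 45037 non-control probe sets, 34945 have 1 gene in the platform annotation, 932 several and 9160 none. Names were updated where RefSeq (GRCm38.p6) held them, 34741 probe sets.

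Values were taken as log2(intensity + 1), and the 27022 probe sets at or above the 40th percentile of mean log2 were tested with limma 3.58.1 in R 4.3.3 (lmFit, eBayes with an intensity trend) on 6 arrays and 3 group means (3 residual and 5.4 prior degrees of freedom), 2-sided, with Benjamini-Hochberg adjustment. The median SE was 0.241, and precision is limited by how few arrays there are. The method was checked on simulated data. Each gene is its brightest tested probe set. The 41 gene lists hold 1088 entries, 979 found on the arrays. Named genes are the 12 largest differences in each direction with unadjusted p under 0.01 and no overlap, leaving out predicted genes, the 4 list members of smallest p (6 for mitosis and acinar), and fixed islet and cycle genes; some of these are given by counts only. The members and lists were chosen with earlier results of these data known. Other settings were quantile normalization, median centring, other filters and pseudocounts, no trend, probe set means, a replicate block, an acinar covariate, arrays of 1 mouse, and leaving out arrays; leaving out BPA100 arrays and counting mitotic and acinar genes per setting were added after seeing the data.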

Additional observations from a re-analysis of the deposited data

How the results depend on the processing

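The median of the mitotic genes stayed above 0 in every setting run, from 0.32 with a pseudocount of 16 to 0.53 without vehicle replicate 1. It was 0.35 to 0.53 over the arrays left out in turn and 0.51 over the arrays of 1 mouse. The count of 46 mitotic genes at unadjusted p under 0.05 was 29 with the acinar level as a covariate and 32 to 45 with an array left out.

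The acinar results moved more than the mitotic ones. The acinar median of 1.01 was -0.08 with the acinar covariate, which by construction removes it, 1.78 over the arrays of 1 mouse and 0.37 to 1.63 with an array left out. Their count of 26 was 2 with the covariate, 13 with no filter, 6 with no intensity trend, 11 over arrays of 1 mouse, 7 after quantile normalization and 3 to 40 with an array left out.

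The 0 probe sets passing adjustment became 1 with only the 2 groups compared, and 0 to 9 with an array left out. The 844 higher probe sets were 459 with the acinar covariate and 401 to 1134 with an array left out. The 1070 lower ones were 530 with the covariate, 596 with a filter at the 60th percentile, 1707 with no filter and 459 to 1139 with an array left out.

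Whether replicate numbers pair the arrays cannot be told from these values, since with 2 arrays per group the deviations of a group mirror each other. Deviations of same-numbered arrays correlated at 0.194 for vehicle and BPA10, 0.199 for vehicle and BPA100 and 0.08 for BPA10 and BPA100. With the replicate block, 1320 probe sets were higher and 1390 lower, 41 acinar genes passed, and the mitotic count was 47.

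Some differences turned sign, among them the large ones of Reg3a and Foxm1. Quantile normalization gave -0.08 for Ccnd2, -0.05 for Chga, -0.02 for Gcg, -0.10 for Iapp, -0.01 for Ppy, -0.07 for Slc2a2 and -0.13 for Sst. The acinar covariate gave -0.33 for Bcl2, -0.54 for Cdkn1a, -0.30 for Foxm1, -0.07 for Nkx6-1 and -0.23 for Reg3a. The arrays of 1 mouse gave -0.05 for Ccnd1, -0.22 for Nkx6-1 and -0.00 for Slc2a2. With an array left out, Bcl2 ranged from -0.25 to 0.43, Ccnd1 from -0.01 to 0.14, Cdkn1a from -0.25 to 0.44, Nkx6-1 from -0.25 to 0.28 and Ms4a1 from -0.04 to 2.44. The causes were not tested. Where an array was left out, the lone array of its group is assumed to vary like the others. With 2 arrays per group, differences near the median SE of 0.241 could not be detected. Far larger ones also failed adjustment, as Hmmr did at 1.88 ± 0.19 (adjusted p = 0.182, limma). Dim probe sets near the brightness filter are less reliable.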
